A study of Mus musculus with 185 samples.

Results

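A set of 10 genes that mark Sca1-positive adventitial fibroblasts were followed through single cells of the uninjured and infarcted mouse heart. The genes, Ly6a, Ly6c1, Cd34, Cd55, Cd248, Pi16, Dpp4, Sema3c, Thy1 and Ass1, were taken by name from the 17171 genes of the deposited table, and all 10 have a row in it. The set was chosen by known adventitial and progenitor-like markers together with an earlier result of these same cells, namely that Ly6c1, Ly6a, Cd55 and Ass1 were high in activated Tcf21-traced cells against activated Postn-traced cells. Values of that contrast are therefore given as a description only. Wherever one of those classes returns in another comparison, the values of these 4 genes are partly fixed by the choice. Non-myocyte cells of about 5 months old mice on a C57BL/6 background were sorted as CD31- and CD45-, so that endothelial and blood cells were depleted, and captured 1 by 1 on the Fluidigm C1 system. Activated cells came from the infarct region after ligation of the left coronary artery, a surgical model of myocardial infarction (MI), 7 days after it in both the Postn and the Tcf21 line. The labels call the Resident Tcf21-traced class uninjured. The study's text places the Resident CD31-CD45- cells in uninjured hearts as well, while 1 figure legend names the remote region of the heart for such sorted control cells. There were 152 activated and 33 resident cells.

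The cells carry 9 class labels and come from 4 captures named by date, which are separate lineage-tracing experiments. The methods name the donor lines as Postn MCM/+; R26-eGFP and Tcf21 MCM/+; R26-eGFP, in which a tamoxifen-inducible MerCreMer recombinase is made from 1 copy of the Postn or the Tcf21 gene and switches on eGFP from the Rosa26 locus. The Jul24 capture held 17 Resident Tcf21-traced cells of uninjured hearts, 12 Resident CD31-CD45- cells that the labels give as Postn-, 3 Resident Postn-positive Tcf21+ cells and 1 Resident Postn-positive CD31-CD45- cell. The Jul29 capture held 27 Activated Postn-traced cells, which are eGFP-positive and Postn+, 24 Activated Postn-negative cells and 6 Activated Postn-positive untraced cells. The Nov4 capture held 44 Activated Tcf21-traced cells with 19 Activated Postn-positive untraced cells, and the Nov11 capture held 29 Untraced scar cells with 3 Activated Postn-positive untraced cells. The labels do not say from which line an untraced cell came. They tie no cell to a mouse, so a class had to be read as a single sample. Differences between classes were therefore given without a test, and the SD beside each mean is the spread between cells of 1 class.

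The adventitia is the outer connective tissue sheath of blood vessels, and its fibroblasts lie apart from the interstitial fibroblasts that sit between cardiomyocytes. Adventitial fibroblasts of many tissues carry Sca1, the small lipid-anchored surface protein encoded by Ly6a, together with Cd34, and a subset with Pi16 and Dpp4 is often called progenitor-like. Cardiac fibroblasts that turn into myofibroblasts after infarction make periostin, the product of Postn, with large amounts of collagen. The transcription factor Tcf21 marks resident cardiac fibroblasts and is used here to trace them.

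Levels are means over cells of log2 (TPM+1), where TPM is the share of a gene in the transcripts of the cell, scaled to a fixed total and corrected for gene length. A gene was counted as detected above 5 TPM, the minimum of the study's methods. The median cell had 2770 detected genes, with 3643 in Activated Postn-traced, 3177 in Untraced scar, 3134 in Activated Tcf21-traced, 2342 in Activated Postn-negative and 2264 in Resident Tcf21-traced cells. In 5 Untraced scar cells there were only 141 to 264 detected genes and 0 to 1 of the 10 markers. At least 3 of 8 fibroblast markers were detected in 183 cells and in fewer in 2. Ly6a, Ly6c1 and Cd34 are also made by endothelial cells, and Thy1 by T cells and neurons. Endothelial and T cell markers were read beside them, and no neuron markers were. No cell had more than 2 of the 8 endothelial markers in the table, 5 cells had 2, and Tie1 was detected in 0 cells. Summed endothelial marker levels ran from 0 to 283 TPM in Activated Postn-traced, from 0 to 786 TPM in Activated Postn-negative and from 0 to 725 TPM in Activated Tcf21-traced cells, and were highest in Activated Postn-positive untraced cells, from 0 to 1516 TPM. Of the myeloid list, 1 Resident CD31-CD45- cell had 7 of 8 markers and 1 Untraced scar cell had 4. The T cell list had 2 of 6 genes in the table, of which Cd3d was detected in 0 cells. Of 6 mesothelial markers 1 Activated Postn-negative cell had 5, and of 6 Schwann cell markers 1 Activated Postn-positive untraced cell had 4. Of 6 pericyte markers 19 cells had 2 or more and 5 had 3 or more, and of 6 smooth muscle markers 45 cells had 2 or more and 5 had 3 or more, although some of these genes are also made by myofibroblasts.

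With all cells pooled, Cd34 and Ly6a were the most widely detected of the 10 markers, Pi16 came next, and Dpp4 was the rarest. This order did not hold in each class. Pi16 was detected in 9 and Ly6a in 4 of 12 Resident CD31-CD45- cells, and in 17 and 16 of 27 Activated Postn-traced cells. Over all classes Cd34 was detected in 167 cells, Ly6a in 135, Pi16 in 123, Cd248 in 99, Cd55 in 95, Ly6c1 in 82, Ass1 in 64, Thy1 in 49, Sema3c in 43 and Dpp4 in 17. When the 7 classes with 12 or more cells were put in order of their mean, none of the 6 neighbouring pairs of any marker lay apart by more than the larger of their SDs. The highest and the lowest class did lie apart by more than that SD for Ly6a, Ly6c1, Cd248 and Ass1, and did not for the other 6 genes. Shares of cells are given below with exact 95% Clopper-Pearson intervals, which cover counting error only.

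**Figure D1:**
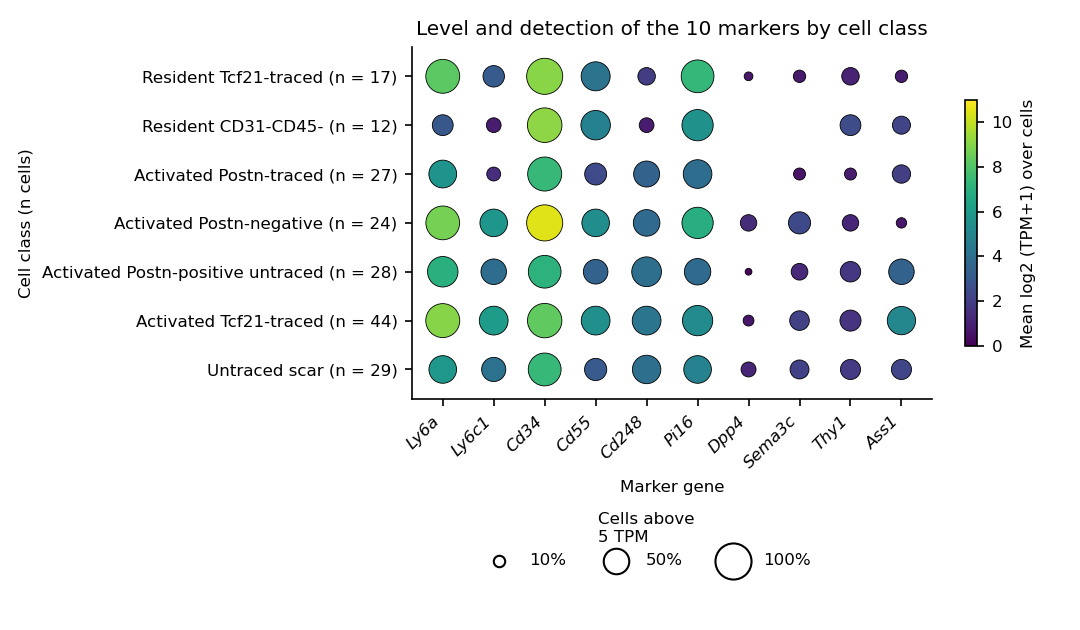
Rows are the 7 classes with 12 or more cells and columns the 10 markers. Dot area shows the percentage of cells above 5 TPM and colour the mean log2 (TPM+1). For Ly6c1 the largest dots are those of Activated Tcf21-traced cells (63.6%) and Activated Postn-negative cells (58.3%), and Dpp4 has no dot in Resident CD31-CD45- and Activated Postn-traced cells.

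Ly6a, the gene of Sca1 (ENSMUSG00000075602, GRCm38 chr15:74994877-74998031, minus strand), was detected in 39 of 44 Activated Tcf21-traced cells (88.6%, interval 75.4% to 96.2%). Its mean there was 9.02 ± 3.39 (SD between cells, n = 44 cells), with a lowest cell at 0, a median of 9.97 and a highest of 12.57. Activated Postn-negative cells were close to that, with 21 of 24 cells (87.5%, 67.6% to 97.3%) and a mean of 8.72 ± 3.5. Activated Postn-traced cells had Ly6a in 16 of 27 cells (59.3%, 38.8% to 77.6%), with a mean of 5.71 ± 4.94, a median of 8.58 and a highest cell at 11.92. The ranges of all these classes overlap from 0 upwards. Of the resident classes, Ly6a was detected in 15 of 17 Resident Tcf21-traced cells (mean 8.22 ± 3.75) and in 4 of 12 Resident CD31-CD45- cells (mean 2.98 ± 4.55). The few resident cells with Postn had it in 2 of 3 and 1 of 1 cells. Untraced scar cells had it in 17 of 29 (mean 5.86 ± 5.26), and in 17 of 24 without the 5 cells with few genes (mean 7.09 ± 4.96).

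Ly6a was close to on or off in a cell. Among cells above 5 TPM its mean was 10.07 ± 1.69 in 39 Activated Tcf21-traced, 9.87 ± 1.70 in 21 Activated Postn-negative and 9.63 ± 1.42 in 16 Activated Postn-traced cells. The classes thus differed mainly in how many cells had the transcript and little in its level where it was present. A missing value can be an absent transcript or one lost in amplification, which cannot be told apart here.

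**Figure D2:**
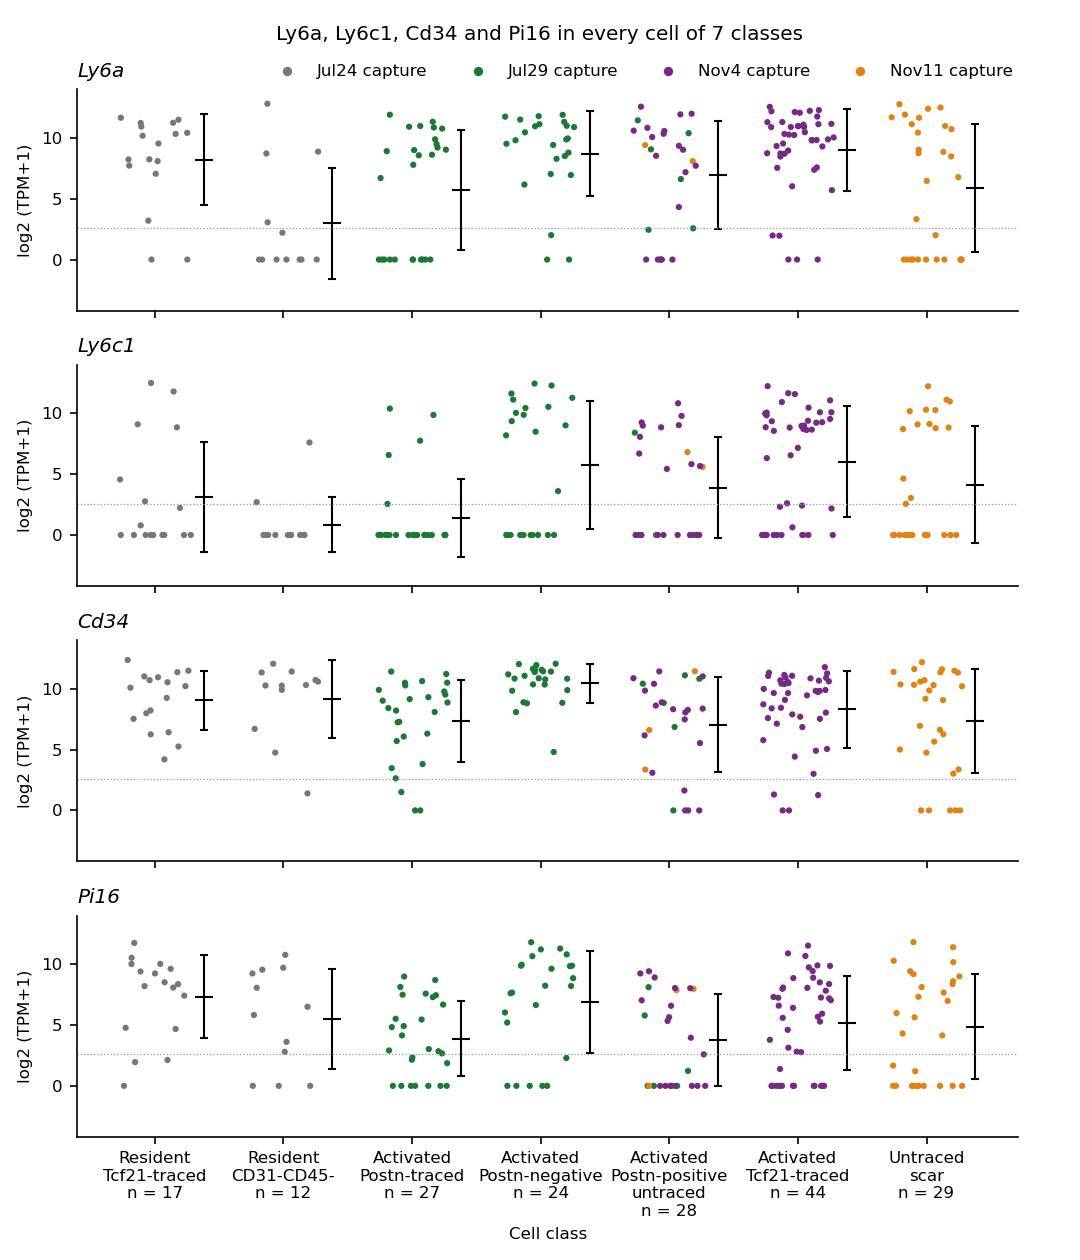
Each point is 1 cell, coloured by capture, at its log2 (TPM+1) of Ly6a, Ly6c1, Cd34 or Pi16 in 7 classes. The bar beside each class is the mean ± SD between cells, and the dotted line is 5 TPM. Ly6a and Ly6c1 fall into a group of cells at or near 0 and a group near 10, while Pi16 spreads more evenly, with no Activated Postn-traced cell above 9.0.

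Ly6c1 (ENSMUSG00000079018, GRCm38 chr15:75044018-75048830, minus strand) lies in the same gene cluster and encodes another lipid-anchored protein of the Ly6 family. It was detected in 28 of 44 Activated Tcf21-traced cells (63.6%, 47.8% to 77.6%), with a mean of 6.03 ± 4.54, a median of 8.65 and a highest cell at 12.25. In Activated Postn-negative cells it was detected in 14 of 24 (58.3%, 36.6% to 77.9%; mean 5.77 ± 5.26). In Activated Postn-traced cells it was detected in 4 of 27 (14.8%, 4.19% to 33.7%; mean 1.38 ± 3.19), and the median cell was at 0. Untraced scar cells had it in 13 of 29 (26.4% to 64.3%) and Activated Postn-positive untraced cells in 14 of 28 (30.6% to 69.4%). Resident cells were low, with 6 of 17 Resident Tcf21-traced cells (mean 3.10 ± 4.53) and 2 of 12 Resident CD31-CD45- cells (mean 0.86 ± 2.26). Ly6c1 was nested in the Ly6a cells: 80 of its 82 positive cells also had Ly6a above 5 TPM, and 55 cells had Ly6a alone.

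Because Ly6c1 has a near copy in the cluster, Ly6c2, the sequences that tell the 2 genes apart were compared. The coding sequences of Ly6c1 and Ly6c2, each 393 bases in the GENCODE M21 annotation of GRCm38, differ at 9 bases (97.7% identical), and 6 of these lie in the first 120 bases. These 120 bases are shown 5′ to 3′, with capitals in the 2 Ly6c genes where they differ from each other and, in Ly6a, where it differs from Ly6c1.
Ly6c1: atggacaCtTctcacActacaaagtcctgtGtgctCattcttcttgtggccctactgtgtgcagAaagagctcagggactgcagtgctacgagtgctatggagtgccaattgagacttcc
Ly6c2: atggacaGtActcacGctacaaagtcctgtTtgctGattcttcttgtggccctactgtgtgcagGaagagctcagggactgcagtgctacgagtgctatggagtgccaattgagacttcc
Ly6a: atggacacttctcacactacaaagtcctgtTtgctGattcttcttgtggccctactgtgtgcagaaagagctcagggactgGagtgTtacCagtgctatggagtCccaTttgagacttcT
Of the 745 windows of 100 bases, the read length of the study, in the Ly6c1 transcript, 114 (15.3%) also occur in Ly6c2 and none occurs in Ly6a, Ly6e or Ly6i. Over their coding sequences Ly6a and Ly6c1 are 81.8% identical, and of the 720 windows of the Ly6a transcript none occurs in those relatives. The table gives Ly6c2 more than 5 TPM in 2 cells, with a highest value of 12.4 TPM, and a value over 0 in 88 cells. Reads of the shared windows were divided between the 2 genes by the quantifier, so part of the low Ly6c2 values and a part of the Ly6c1 values are uncertain.

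Cd34, a sialomucin of the cell surface (ENSMUSG00000016494, GRCm38 chr1:194938819-194961279, plus strand), was the marker found in most cells of every class. It was detected in 24 of 24 Activated Postn-negative cells (interval from 85.8%), where it had its highest mean, 10.45 ± 1.63, with a lowest cell at 4.81 and a median of 10.86. In Activated Postn-traced cells it was detected in 24 of 27 (88.9%, 70.8% to 97.6%), with a lower mean of 7.37 ± 3.40 and a median of 8.42. Activated Tcf21-traced cells lay between them, with 40 of 44 cells and a mean of 8.31 ± 3.20. Unlike Ly6a, Cd34 differed in level among the cells that had it, with 10.45 ± 1.63 in the 24 Postn-negative and 8.23 ± 2.46 in the 24 Postn-traced cells. Resident cells were high in both main classes, with a mean of 9.06 ± 2.43 in Resident Tcf21-traced and 9.15 ± 3.20 in Resident CD31-CD45- cells. It was thus present in resident cells that mostly lacked Ly6a, since 7 of 12 Resident CD31-CD45- cells had Cd34 without Ly6a and 0 had Ly6a without Cd34.

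Cd248 and Thy1 are 2 further surface proteins of stromal cells and did not follow that order. Cd248, endosialin (ENSMUSG00000056481, chr19:5068078-5070682, plus strand), was detected in 4 of 17 Resident Tcf21-traced cells and 2 of 12 Resident CD31-CD45- cells, and in more than 50% of each infarct class. Its mean was 1.95 ± 3.33 in Resident Tcf21-traced, 3.40 ± 2.63 in Activated Postn-traced, 3.78 ± 3.78 in Activated Postn-negative and 4.27 ± 3.31 in Activated Tcf21-traced cells. The 3 infarct classes differed by less than their SDs. Thy1, the lipid-anchored CD90 protein (ENSMUSG00000032011, chr9:44043384-44048579, plus strand), was detected in 11.1% to 34.1% of the cells of the 7 classes. Its highest mean was 2.52 ± 3.96 in Resident CD31-CD45- cells and its lowest 0.84 ± 1.88 in Activated Postn-traced cells.

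Cd55, decay-accelerating factor, protects cells from complement (ENSMUSG00000026399, chr1:130439027-130462744, minus strand). It was detected in 28 of 44 Activated Tcf21-traced cells (63.6%, 47.8% to 77.6%; mean 5.49 ± 4.05) and in 14 of 24 Activated Postn-negative cells (58.3%, 36.6% to 77.9%; mean 5.37 ± 4.78). Activated Postn-traced cells had it in 10 of 27 (37%, 19.4% to 57.6%; mean 2.47 ± 3.30). Resident Tcf21-traced cells had it in 11 of 17 (mean 4.21 ± 3.57) and Resident CD31-CD45- cells in 8 of 12 (mean 4.79 ± 3.84). These larger resident classes lay within 1 log2 unit of each other for Cd55, and the few resident cells with Postn had means of 0.60 (3 cells) and 0 (1 cell).

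Pi16, Dpp4 and Sema3c are the genes most often used for the progenitor-like subset. Pi16, a secreted peptidase inhibitor (ENSMUSG00000024011, chr17:29317680-29330593, plus strand), had its highest mean in uninjured hearts, 7.34 ± 3.40 in Resident Tcf21-traced cells, where 14 of 17 had it. Activated Postn-negative cells were at 6.91 ± 4.21 (18 of 24 cells), Activated Tcf21-traced cells at 5.20 ± 3.88 (31 of 44) and Activated Postn-traced cells at 3.89 ± 3.12 (17 of 27). The share of cells with Pi16 was 75% (53.3% to 90.2%) in Postn-negative and 63% (42.4% to 80.6%) in Postn-traced cells, with overlapping intervals. Its level among positive cells was 9.09 ± 1.90 in the former and 5.81 ± 2.17 in the latter.

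Dpp4, the surface peptidase CD26 (ENSMUSG00000035000, chr2:62330073-62412231, minus strand), was detected in 5 of 24 Activated Postn-negative (20.8%, 7.13% to 42.2%), 5 of 29 Untraced scar and 4 of 44 Activated Tcf21-traced cells (9.09%, 2.53% to 21.7%). It was detected in 0 of 27 Activated Postn-traced cells (interval up to 12.8%) and 0 of 12 Resident CD31-CD45- cells (up to 26.5%). The intervals of the Postn-negative and Postn-traced classes overlap, and Dpp4 was below the detection filter in both. Sema3c, a secreted guidance protein (ENSMUSG00000028780, chr5:17574281-17730268, plus strand), was detected in 9 of 24 Postn-negative cells (37.5%, 18.8% to 59.4%), 13 of 44 Tcf21-traced cells (29.5%, 16.8% to 45.2%) and 3 of 27 Postn-traced cells of the infarct (11.1%, 2.35% to 29.2%). Of the resident cells it was found in 2 of 17 Resident Tcf21-traced and 0 of 12 Resident CD31-CD45- cells.

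Ass1, argininosuccinate synthase, joins citrulline and aspartate on the way to arginine (ENSMUSG00000076441, chr2:31470207-31520672, plus strand). It was detected in 27 of 44 Activated Tcf21-traced cells (61.4%, 45.5% to 75.6%), with a mean of 5.08 ± 4.07, a median of 5.94 and a highest cell at 11.59. Activated Postn-negative cells, which shared high Ly6a, Ly6c1 and Cd55 with the Tcf21-traced cells, had Ass1 in 2 of 24 (8.33%, 1.03% to 27%; mean 0.68 ± 2.34). Activated Postn-traced cells had it in 7 of 27 (mean 2.02 ± 3.57) and Resident Tcf21-traced cells in 2 of 17 (mean 0.87 ± 2.16). In the class found in several captures, Activated Postn-positive untraced, Ass1 was detected in 1 of 6 cells of the Jul29 capture, in 11 of 19 cells of the Nov4 capture and in 2 of 3 cells of the Nov11 capture. In the Nov4 cells of the class Ass1 was higher than in the Jul29 cells by 3.53. Among the 2846 genes detected in 50% or more of the cells with the higher mean, it was at rank 238. Of these genes 48.3% were higher by over 1 log2 unit in the Nov4 cells. Ass1 met the 50% limit only through the Nov4 cells, where it was high, so its rank is a description.

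The comparison on which the set was chosen, Activated Tcf21-traced minus Activated Postn-traced cells, is described first, and nothing rests on it. By over 1 log2 unit, 6 of the 10 markers were higher and 0 were lower. The detection filter kept 2660 genes, those above 5 TPM in 50% or more of the cells in the class with the higher mean, and 7 of the 10 markers. Of these 2660 genes 11.2% were higher and 19.3% lower by as much, and of the 7 markers 5 were higher and 0 lower. Differences of mean log2 (TPM+1) were 4.66 for Ly6c1, 3.31 for Ly6a, 3.06 for Ass1, 3.01 for Cd55, 1.55 for Sema3c and 1.31 for Pi16. By size of the difference among those 2660 genes, Ly6c1 was at rank 1, Ly6a at 2, Ass1 at 4 and Cd55 at 5. The other 4 markers were within 1 log2 unit, with Cd34 at 0.94. The classes come from the Nov4 and the Jul29 capture, so class and capture cannot be told apart here.

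Within the Jul29 capture, Activated Postn-traced cells can be set against Activated Postn-negative cells that were not part of the choice, although the Postn-traced cells were. In Postn-traced cells 7 of the 10 markers were lower by over 1 log2 unit, and Ass1 was higher. The median difference over the 10 was -2.38, against 1.05 over the 2465 genes that passed the same detection filter, of which 7.18% were lower and 51.6% higher by over 1 log2 unit. Postn-traced cells had more detected genes, with a median of 3643 against 2342, and the part of detected genes in the result was not tested. The count of 7 and the median over the 10 markers include the 4 genes of the choice, so both are partly fixed by it. The 6 that passed the filter were Ly6a, Ly6c1, Cd34, Cd55, Cd248 and Pi16, and the other 4 were below it. Of those 6, 5 were lower and 0 higher, but Ly6c1 and Cd55 passed only through the Postn-negative class, where they were high.

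Ly6c1 differed most, with a mean of 1.38 ± 3.19 in Postn-traced against 5.77 ± 5.26 in Postn-negative cells, a difference of -4.39. Ly6a differed by -3.01 and Cd55 by -2.90. These genes were chosen partly because Postn-traced cells were low for them, so their differences are a description. Cd34 differed by -3.07 and Pi16 by -3.02, at ranks 29 and 31 from the lowest of the 2465 genes. The rarely detected Sema3c and Dpp4 differed by -1.86 and -1.35. Cd248 at -0.38 and Thy1 at -0.35 were within 1 log2 unit, and Ass1 differed by 1.33. Some markers of smooth muscle cells and pericytes were higher in Postn-traced cells. Of 6 smooth muscle markers 2 were higher, Tagln by 4.17 and Acta2 by 3.29, and of 6 pericyte markers 1 was, Pdgfrb by 2.16. At least 2 smooth muscle markers were detected in 12 of 27 Postn-traced and 0 of 24 Postn-negative cells. Summed smooth muscle marker levels ran from 0 to 5693 TPM and from 0 to 443 TPM, and summed pericyte marker levels up to 688 and 1195 TPM. Their part in the result was not tested. None of the 10 marker differences was beyond the larger SD between cells. Among cells with 2000 to 4000 detected genes, 21 in each class, again 7 markers were lower and 1 higher, and Ly6c1 differed by -5.07. With means taken on the linear TPM scale the difference of Ly6a shrank to -0.91, under 1 log2 unit. With medians over cells that of Ass1 was 0, and 5 markers were lower.

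**Figure D3:**
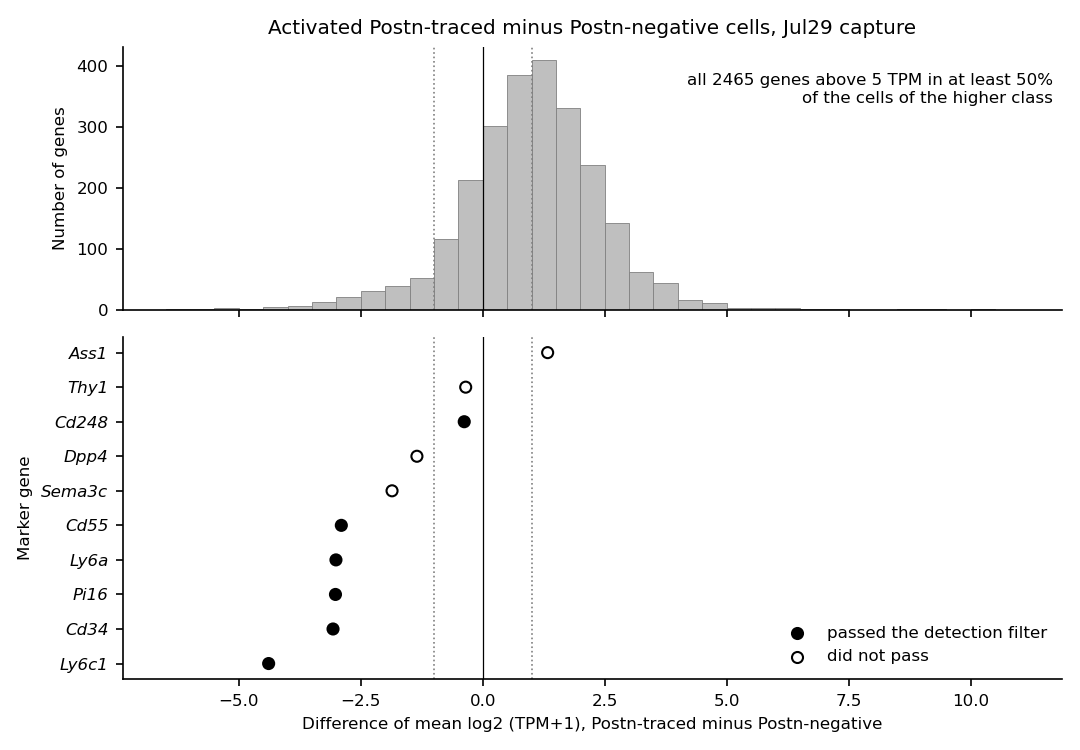
The upper panel is a histogram of the difference in mean log2 (TPM+1), Activated Postn-traced (27 cells) minus Activated Postn-negative (24 cells), over the 2465 genes that passed the detection filter. The lower panel gives the 10 markers on the same axis, filled where they passed the filter, with dotted lines at 1 log2 unit either way. Most genes lie to the right of 0, and Ly6c1, Cd34, Pi16, Ly6a and Cd55 lie between -4.39 and -2.90.

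Within the Nov4 capture, Activated Tcf21-traced cells were set against 19 Activated Postn-positive untraced cells. In the Tcf21-traced cells 5 of the 10 markers were higher by over 1 log2 unit and 0 were lower, where 10.5% of the 2643 genes were higher and 15.7% lower. All 5 were among the 7 markers that passed the filter. They were Cd55 with 2.06, Ly6a with 1.90, Cd34 with 1.57, Ly6c1 with 1.37 and Pi16 with 1.26, and each was smaller than the SD between cells. Ass1 differed by 0.99, with 4.08 ± 3.67 in the untraced cells of this capture. The Tcf21-traced cells are those on which the set was chosen, so this is a description as well. Of the smooth muscle markers Tagln was lower by 2.12 and Acta2 by 1.2 in the Tcf21-traced cells, and of the pericyte markers Pdgfrb by 1.77, and their part in the result was not tested. At 2 log2 units, 1 of the 10 markers, Cd55, was higher.

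The 19 Nov4 and 6 Jul29 cells of the Activated Postn-positive untraced class share a label, and were compared after the data were seen. In the Nov4 cells 4 markers were higher by over 1 log2 unit and 1 was lower, beside 48.3% and 18.1% of 2846 genes. Of the 6 markers that passed the filter the same 4 were higher and 1 was lower. Ass1 was 4.08 ± 3.67 against 0.55 ± 1.36 and Ly6c1 was 4.66 ± 4.31 against 1.40 ± 3.44. Cd248 differed by 1.75 and Pi16 by 1.42, and Cd34 by -1.27. Ass1, Ly6c1, Cd248 and Pi16 passed the filter only through the Nov4 cells, where they were high, so their differences are a description. Ly6a had near equal means, with 7.11 ± 4.75 against 7.10 ± 3.90. The 6 Jul29 cells limit these values, and those cells had fewer detected genes, with a median of 2234.5 against 3361. Of 6 smooth muscle markers 2 were higher in the Nov4 cells, Acta2 by 4.95 and Tagln by 4.72. Of 6 pericyte markers 1 was higher there, Pdgfrb by 2.39. Among cells with 2000 to 4000 genes, 11 and 4, only 2 markers were higher, 2 were lower and Cd248 was at -0.38. The part of detected genes and of these smooth muscle and pericyte markers in the result was not tested.

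Injury was read within 1 tracer, as Activated minus Resident Tcf21-traced cells, from separate captures. The Activated cells are those on which Ly6c1, Ly6a, Cd55 and Ass1 were chosen as high, so the values of these 4 genes are a description. By over 1 log2 unit 5 markers were higher and Pi16 was lower, while of 2305 genes 56.5% were higher and 8.46% lower, with a median difference of 1.21. Activated cells had more detected genes, with a median of 3134 against 2264. Among cells with 2000 to 4000 detected genes, 28 and 11, the median difference over all genes that passed the filter was 0.55. The part of detected genes in the result was not tested. Of the 7 markers that passed the filter 4 were higher and 1 lower, a share of higher markers close to that of all genes, and Ass1, Ly6c1 and Cd248 passed only through the Activated class. Ass1 differed most, by 4.21, with 5.08 ± 4.07 after injury against 0.87 ± 2.16, beyond the larger SD. Ly6c1 differed by 2.94, Cd248 by 2.31, Sema3c by 1.34 and Cd55 by 1.28. Ly6a differed by 0.80, and Cd34 by -0.75. Pi16 was lower by 2.14, with 5.20 ± 3.88 after injury against 7.34 ± 3.40, the 50th lowest of the 2305 genes. Of 6 smooth muscle markers 2 were higher after injury, Tagln by 3.62 and Acta2 by 2.59. Of 6 pericyte markers 1 was higher, Pdgfrb by 1.85. The part of these genes in the result was not tested. On the linear scale of means 2 markers were higher in place of 5.

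The larger Jul24 classes share a capture, and neither was used in the choice. Resident Tcf21-traced cells had 4 of the 10 markers higher and 2 lower by over 1 log2 unit than Resident CD31-CD45- cells, where 27.7% of 1540 genes were higher and 21% lower. Those 1540 genes passed the detection filter, and of the 4 markers that passed it 2 were higher and 0 lower. Ly6a had the largest difference of the 1540 genes, 5.24, with 8.22 ± 3.75 against 2.98 ± 4.55. Ly6a passed the filter only through the Resident Tcf21-traced class, where it was high, so this place is a description. Resident Tcf21-traced cells had it in 88.2% of cells (63.6% to 98.5%) and Resident CD31-CD45- cells in 33.3% (9.92% to 65.1%), and these intervals overlap. Without the 1 Resident CD31-CD45- cell with 7 myeloid markers the difference was 4.97. On the linear scale of means it was 0.71, and the highest Resident CD31-CD45- cell was at 12.82, above every Resident Tcf21-traced cell. Ly6c1 differed by 2.24, Pi16 by 1.83 and Cd248 by 1.13. Thy1 at -1.46 and Ass1 at -1.34 were lower, and both were below the filter, as were Ly6c1 and Cd248.

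Untraced scar cells of the Nov11 capture had 0 markers higher and 4 lower by over 1 log2 unit than Activated Tcf21-traced cells, while of 2292 genes 1.75% were higher and 59.7% lower. Of the 7 markers that passed the filter 4 were lower, a share close to that of all genes. The 4 were Ly6a with -3.15, Ass1 with -2.77, Cd55 with -2.39 and Ly6c1 with -1.90, the same genes that were chosen as high in the Activated Tcf21-traced cells, so this is a description only. Pi16 differed by -0.32, Cd248 by -0.30 and Sema3c by -0.04, and Dpp4 was at 0.55. Acta2 differed by -1.95 and Tagln by -1.09, and their part in the result was not tested. Without the 5 scar cells with few genes the same count was 4, and the difference of Ly6a was -1.93. Without 6 cells under 50% of the median genes of their capture 3 markers were lower. On the linear scale of means 2 markers were higher and 1 was lower.

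**Figure D4:**
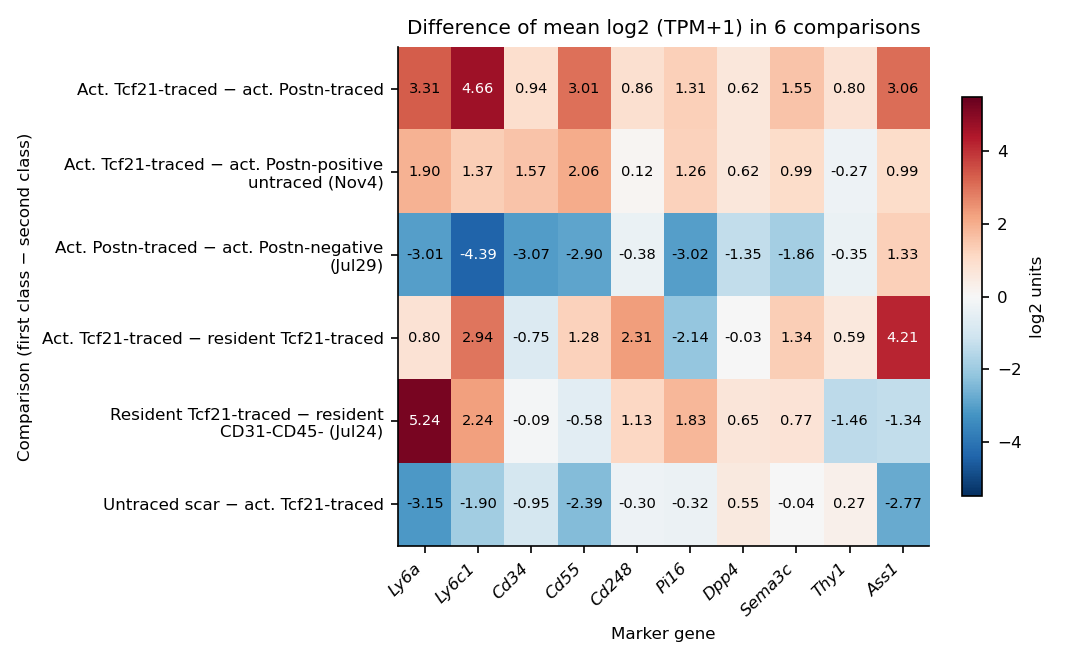
Rows are 6 comparisons and columns the 10 markers, and each cell of the grid gives the difference of mean log2 (TPM+1) between the classes, red where the first class is higher and blue where it is lower. The Jul29 comparison of Postn-traced with Postn-negative cells is blue in 9 of the 10 markers, and Ass1 is the exception at 1.33.

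The number of markers detected in 1 cell ran from 0 to 10. Its median was 6 in Activated Tcf21-traced, 5.5 in Activated Postn-negative, 5 in Untraced scar, 4 in Resident Tcf21-traced, 4 in Activated Postn-traced and 3.5 in Resident CD31-CD45- cells. At least 7 markers were detected in 17 of 44 Activated Tcf21-traced cells (38.6%, 24.4% to 54.5%) and 8 of 24 Activated Postn-negative cells (33.3%, 15.6% to 55.3%). In Activated Postn-traced cells, with the most detected genes, 3 of 27 had as many (11.1%, 2.35% to 29.2%). The first and the last of these intervals overlap, and the Tcf21-traced and Postn-traced classes are those of the choice, so their order is a description.

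All 10 markers were detected in 3 cells, 1 each of the Activated Postn-negative, Activated Tcf21-traced and Untraced scar classes. The Postn-negative cell had 2715 detected genes, Ly6a at 11.8, Pi16 at 11.3, Dpp4 at 6.74 and Postn at 1.05. The Tcf21-traced cell had 3164 detected genes, Pi16 at 11.54, Dpp4 at 8.78 and Postn at 11.26. The scar cell had 3229 detected genes, Pi16 at 11.83, Dpp4 at 4.88 and Postn at 13.55. Full sets of the markers thus occurred in a cell without detected Postn and in cells with very high Postn.

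Dpp4 cells carried most of the other markers. The 17 cells with Dpp4 had a median of 7 of the other 9, and 5 at least, against a median of 4 in the 168 cells without it. Their median number of detected genes was 2929 against 2762.5. Pi16 was detected in 16 of the 17 and Sema3c in 13. Within Activated Postn-negative cells the medians were 7 in the 5 cells with Dpp4 and 4 in the 19 without, with 2715 and 2313 detected genes. Within Untraced scar cells they were 7 in 5 and 4 in 24, with 3232 and 2844.5 detected genes. Within Activated Tcf21-traced cells the gap was smaller, with 7 in 4 and 6 in 40, and 2787 and 3209.5 detected genes. The part of detected genes in the result was not tested.

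**Figure D5:**
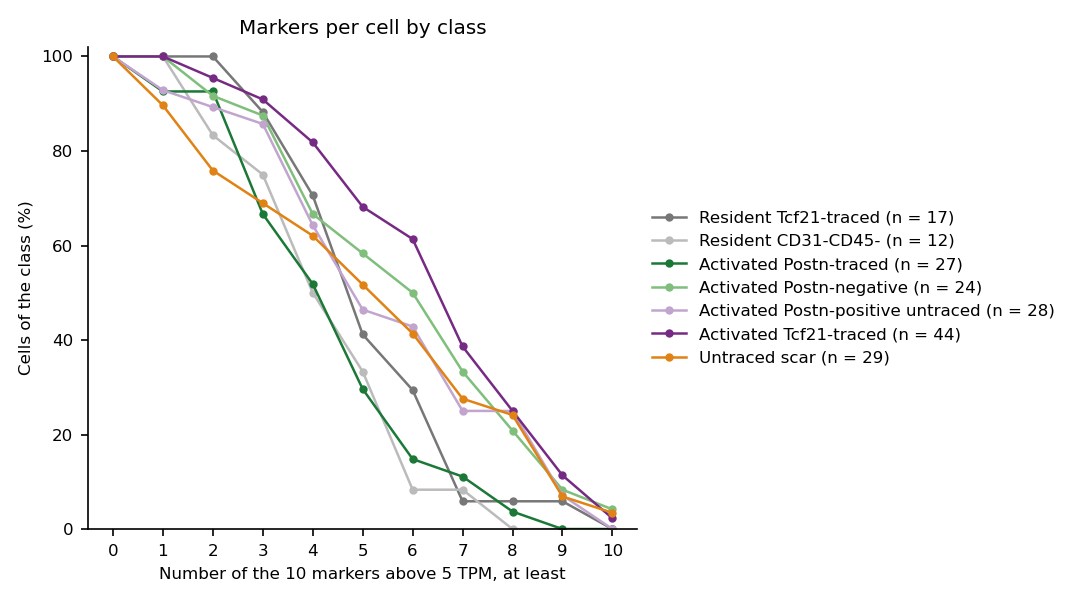
The horizontal axis is a number of the 10 markers and the vertical axis the percentage of cells of a class with at least that many above 5 TPM, 1 line for each of 7 classes. Activated Tcf21-traced cells keep the highest line from 3 to 7 markers, with 38.6% of cells at 7 or more, and Activated Postn-traced cells fall to 11.1% there, although 4 of the markers were chosen on these classes.

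Pairs of markers were read for whether they were high in the same cells of a class. Over the 45 pairs of markers the median Pearson correlation was 0.40 in the 24 Activated Postn-negative cells and 0.25 in the 44 Activated Tcf21-traced cells, with 42 and 43 pairs above 0. In the 27 Activated Postn-traced cells, where Dpp4 was at 0 and 36 pairs remained, it was 0.15, with 29 above 0. Cells of a class share a capture, and removing a linear fit on the number of detected genes left medians of 0.36, 0.24 and 0.12. Over all pairs of genes detected in at least 3 cells of the class the median was 0.01 in Activated Postn-negative (6483 genes), 0.03 in Activated Tcf21-traced (9834 genes) and 0.02 in Activated Postn-traced cells (8794 genes), with 51.5%, 57.9% and 53.7% of pairs above 0. After the same fit those medians were -0.02, -0.01 and -0.01. In Postn-negative cells the closest pairs were Ly6c1 with Pi16 at 0.76, Ly6a with Pi16 at 0.74 and Cd55 with Cd248 at 0.72. In Tcf21-traced cells Cd34 with Pi16 was the closest at 0.56. These are descriptions over cells, and many of the points are zeros.

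Correlations of the markers with Postn in Activated Tcf21-traced cells lay between -0.26 for Cd34 and 0.46 for Ass1, with Ly6a at 0.01 and Pi16 at 0.02. With a linear fit on the number of detected genes removed, they were -0.05 for Cd34, 0.28 for Ass1, -0.17 for Ly6a and 0.14 for Pi16. Without such a fit, Postn itself had a correlation of 0.60 with the number of detected genes in these cells, Ass1 one of 0.42 and Cd34 one of -0.37. By the same measure over these 44 cells, and among 1927 genes detected in 50% to 95% of them, the genes outside the set most like Ly6a were Serpinb6a (0.65), Ctsd (0.54), S100a16 (0.49), Ctcfl (0.48) and Prr13 (0.48). Those most like Cd34 were Htra3 (0.56), Pla1a (0.55), Dpep1, Ckb and Sparcl1 (0.52 each). Of the 5 listed for Ly6a, only Serpinb6a, an intracellular protease inhibitor, had a correlation above 0.3 with it in each of the other 4 infarct classes, with 0.38 in Postn-traced, 0.55 in Postn-negative, 0.32 in Postn-positive untraced and 0.48 in Untraced scar cells.

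Other genes of adventitial fibroblasts were read as a list of 18, all in the table. In Activated Postn-traced minus Postn-negative cells, 9 were lower and 2 higher by over 1 log2 unit, with a median of -1.02. Of the 9 that passed the filter 5 were lower and 2 higher, beside 7.18% and 51.6% of all genes that passed it. Those furthest apart were Ackr3, a chemokine scavenging receptor (2.53 ± 3.60 against 6.19 ± 4.60), Gfpt2, an enzyme of hexosamine synthesis (5.30 ± 3.49 against 8.06 ± 4.33), Igfbp6, which binds insulin-like growth factors (5.21 ± 4.17 against 7.59 ± 3.88) and Clec3b, tetranectin (0.98 ± 2.17 against 3.13 ± 3.19). Genes of interstitial fibroblasts were lower as well. Of 12 genes listed for Sca1-low interstitial fibroblasts, 7 were lower and 0 higher, with a median of -2.35, and of the 8 that passed the filter 6 were lower. They included Hsd11b1 with -3.91, Smoc2 with -3.66, Lpl with -2.84 and Tcf21 with -2.68. Ackr3, Clec3b, Hsd11b1 and Tcf21 passed the filter only through the Postn-negative class, where they were high, so their differences are a description. Of 10 myofibroblast genes, which all passed the filter, all 10 were higher, with Cthrc1 at 9.18, Mfap2 at 7.40 and Lox at 6.41, beside the same 51.6% of all genes. Cthrc1, Mfap2 and Lox passed it only through the Postn-traced class, where they were high. Postn, by which these classes are named, differed by 10.37.

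Within the Tcf21 tracer the adventitial and the interstitial lists were also read for injury. In Activated minus Resident Tcf21-traced cells, 7 of the 12 Sca1-low genes were lower and 0 higher, with a median of -1.84. Lpl, lipoprotein lipase, differed by -4.57, Sparcl1 by -3.48, Smoc2 by -3.46 and Pdgfra by -2.95. Of the 18 adventitial genes, 6 were higher and 3 lower, with a median of 0.32, and Ugdh, which makes the precursor of hyaluronan, differed by 3.69. Of those that passed the filter, 5 of 6 Sca1-low genes were lower, and 4 of 7 adventitial genes were higher and 1 lower, beside 56.5% of all genes higher and 8.46% lower. Of the higher ones Ugdh and Anxa3 passed it only through the Activated class, where they were high, so their differences are a description. The 10 markers had a median of 1.04, and all genes passing the filter one of 1.21. The classes are confounded with capture, and the difference between lists was not tested.

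Relatives of the markers were counted in Activated Postn-traced minus Postn-negative cells of the Jul29 capture, where 51.6% of all genes passing the filter were higher and 7.18% lower. Few of the relatives passed that filter, and over all genes without it 19.8% were higher and 2.77% lower. Among 7 genes of the Ly6 family, Ly6a and Ly6c1 were lower, and Ly6e was higher, with 7.75 ± 2.26 in Postn-traced against 6.16 ± 3.63 in Postn-negative cells. Of 8 complement regulators 3 were lower and 3 higher. Cd55 with -2.90 and Serping1, the C1 inhibitor, with -1.82 were lower, and Cr1l with 2.07 and Cd59a with 1.81 were higher. Of 10 genes of arginine and citrulline metabolism 2 were higher and 0 lower. Ddah1, which breaks down methylated arginines, was at 5.54 ± 4.49 in Postn-traced cells and detected in 0 of 24 Postn-negative cells. Of 13 class 3 semaphorins and receptors 1 was higher and 1, Sema3c, was lower. Of 12 interferon response genes 2 were lower, Irf1 with -2.85 and Ifi27l2a with -2.07, and 1 was higher. Ly6c1, Cd55, Cr1l, Cd59a, Ddah1 and Irf1 passed the filter only through the class where they were high, so their differences are a description.

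Promoters of 7 of the 10 markers, 8 sequences of 300 bases around the start in the RefSeq table for GRCm38.p6, were searched on both strands for 4 short motifs. TTCNNNGAA, the core of STAT sites, and TGACTCA, an AP-1 site, were in 0 of the 8, against 8.30% and 5.20% of all 32851 promoters. A pair of GAAA runs 2 bases apart, the core of interferon response elements, was in that of Dpp4 and in 3.44% of all. TATAAA was in 2 of the 8, that of Dpp4 and a single sequence of Ly6c1, and in 13.6% of all. The other Ly6c1 sequence lacked it. A match of letters is no binding site, and its absence speaks only of these windows.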

How the data were processed

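Single cells were captured and amplified with the Fluidigm C1 and SMARTer chemistry. The authors deposited 1 table of log2 (TPM+1) for 17171 genes in 185 cells, which had been made with Bowtie 1.0.0 and eXpress 1.5.1 on mm10 by the submitters' processing notes. Its title names FPKM and its header TPM; back on the linear scale each cell totals 999257 to 1000000, as TPM should. The methods state read depth only as an average over cells; as that of each cell is not given in the sources used here, detected genes per cell (above 5 TPM) are printed in its place. A further 3 columns hold no sample and were not used.

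Classes were taken from the labels and captures from the cell names. With no mouse known, a class is 1 sample, so differences of class means are given with SDs between cells and no p-value, and over 1 log2 unit was counted as higher or lower. The background is every gene detected in 50% or more of the cells in the class with the higher mean. A gene can pass this filter only through the class where it is high, and its difference is then a description. The members, lists and comparisons were chosen with earlier results of these data known. All 10 members are named. Of each other list at most 4 genes are named, those with the largest difference that pass the same filter, and for Ly6a and Cd34 the 5 most correlated genes. Difference and correlation were tested on simulated data. No protein sequences were used here. Alternatives were another scale, centre, pseudocount (0.1 or 5), scaling, minimum (1 TPM or any value over 0) or choice of cells. Calculations ran in SciPy 1.17.1, pandas 2.3.3 and NumPy 2.4.6 under Python 3.11.15, with plots from Matplotlib 3.10.9.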

Additional observations from a re-analysis of the deposited data

How the results depend on the processing

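No paired analysis was possible because the labels give no replicate numbers that pair cells across classes. Of 40 member differences past 1 log2 unit, their 337 values under an alternative were still past it in the same direction in 297, and 114 of 134 counts of members stayed within 1.5 times. With 2 log2 units, 1 marker was higher in Activated Tcf21-traced than in Postn-positive untraced cells of Nov4, 0 were higher in Postn-traced than in Postn-negative cells, 3 were higher in Activated than in Resident Tcf21-traced cells, 2 were higher and 0 lower in Resident Tcf21-traced than in Resident CD31-CD45- cells, and 2 were higher and 0 lower in Nov4 than in Jul29 Postn-positive untraced cells. On the linear scale, 2 were higher in Activated than in Resident Tcf21-traced cells, 2 were higher and 1 lower in Untraced scar than in Activated Tcf21-traced cells, and 0 were lower in the Nov4 untraced cells. With medians, 0 were higher in Postn-traced than in Postn-negative cells, and 2 were higher and 1 lower in Resident Tcf21-traced than in Resident CD31-CD45- cells. A pseudocount of 5 left 0 higher in Postn-traced than in Postn-negative cells. With each cell centred on its median detected gene, 7 were lower in Untraced scar cells and 0 in the Nov4 untraced cells.

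Choices made after seeing the data were the comparison of the untraced class between captures and the limits on detected genes and on markers of other cell types. In that comparison, leaving out cells with 2 or more endothelial markers gave 0 lower, and keeping cells with 2000 to 4000 genes gave 2 higher and 2 lower, with Cd248 at -0.38 in place of 1.75, the only sign that turned in a difference past 1. The causes were not tested. Without a filter on genes, 13 of 14 background shares moved by over 1.5 times, to 2.77% lower and 19.8% higher in the Jul29 comparison. At a minimum of 1 TPM, 2 of 70 shares of cells left their interval. The values rest on 1 to 44 cells a class and a few mice a group that no label ties to cells, and Dpp4 rests on 17 cells in all.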
